A study of Mus musculus with 28 samples.

Results

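Cell adhesion genes were followed through endotoxin-induced uveitis (EIU) in retinal microglia, 10 in number: the hyaluronan receptor gene Cd44, the integrin alpha subunits Itgal, Itgam, Itgax, Itga4 and Itgav, the beta subunits Itgb2 and Itgb5, and the integrin ligands Icam1 and Vcam1. They were taken by symbol from the table of 40021 genes, where all 10 had a line, and read over all 28 retinas. Each retina was a single eye of a young adult male mouse, heterozygous for Cx3cr1CreER:R26-tdTomato on a C57BL/6 background. All mice had received tamoxifen some weeks earlier, after which Cre driven from the Cx3cr1 locus switched on tdTomato in microglia. A single Cx3cr1 allele of every mouse, naïve mice included, therefore carried the CreER insertion. Live cells with high tdTomato were sorted from 10 naïve retinas, from 6 retinas at 4 h, from 5 at 18 h and from 7 at 2 weeks after intravitreal lipopolysaccharide (LPS), the bacterial ligand of toll-like receptor 4. Naïve eyes were not injected, so the injection itself and LPS cannot be told apart. Experiment 1 gave 6, 3, 4 and 4 of these retinas and experiment 2 gave 4, 3, 1 and 3.

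Integrins are pairs of an alpha and a beta chain that hold cells to matrix or to other cells. The beta2 chain (Itgb2, CD18) is the leukocyte chain and pairs with alphaL (Itgal) to form LFA-1, with alphaM (Itgam, CD11b) to form Mac-1 or complement receptor 3, and with alphaX (Itgax, CD11c) to form complement receptor 4. ICAM-1 is the ligand of LFA-1 and Mac-1, and VCAM-1 is the ligand of alpha4 integrins. AlphaV with beta5 binds vitronectin and takes part in the uptake of photoreceptor debris in the retina, and CD44 binds hyaluronan and osteopontin.

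Values are RPKM, which divide the reads of a gene by its transcript length and by the reads of the library. Alignments per retina ran from 7510000 to 19700000, and 1 whole read of Icam1 would be worth 0.0200 RPKM in the deepest retina and 0.0525 in the shallowest, taking its longest transcript. Changes are log2 fold changes of RPKM + 1, which understate the change of low genes, with their standard error (SE). A gene was called when its adjusted p was at most 0.05 and its fold change at least 2 in either direction, in limma over the 13164 genes that reached 1 RPKM in 5 or more retinas. All adjusted p-values below are from that test with Benjamini-Hochberg adjustment. Of the 10 genes, 9 entered it, and Itga4, which reached 1 RPKM in 2 of 28 retinas, did not. Itgal and Cd44 entered only through the LPS groups, since 0 and 1 of the 10 naïve retinas reached 1 RPKM. Their adjusted p without any filter is therefore given beside each limma call on all 28 retinas, and not for fits on fewer retinas. The labels do not say which eyes came from 1 mouse, so p-values measure the spread between retinas. If both eyes of 1 mouse are in a group, they are not independent, and the p-values may be too small.

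The upstream DNA of Icam1 and Cd44 is shown because Icam1 rose most at 4 h and Cd44 was the gene whose rise differed between experiments. Windows of 250 bases before the RefSeq start (GRCm38.p6) were read for the 7 members with an entry. A set of 3 motifs was searched on both strands, the relaxed NF-kappa B core GGNNNTTCC, the AP-1 site TGANTCA and the PU.1 site GAGGAAGT. Capitals mark matches. The Icam1 window lies at chr9:21015690-21015939 on the plus strand and that of Cd44 at chr2:102901666-102901915 on the minus strand.
Icam1: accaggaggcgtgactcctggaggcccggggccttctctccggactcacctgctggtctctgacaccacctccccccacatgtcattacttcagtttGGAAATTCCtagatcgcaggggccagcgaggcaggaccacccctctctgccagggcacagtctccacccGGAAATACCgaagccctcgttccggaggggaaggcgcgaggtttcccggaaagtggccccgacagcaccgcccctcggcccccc
Cd44: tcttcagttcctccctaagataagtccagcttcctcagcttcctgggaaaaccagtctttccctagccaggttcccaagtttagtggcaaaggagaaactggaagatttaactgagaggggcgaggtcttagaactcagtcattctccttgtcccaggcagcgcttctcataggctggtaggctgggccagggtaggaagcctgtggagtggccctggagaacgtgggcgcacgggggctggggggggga
The NF-kappa B core was found at 2 places in the Icam1 window, at positions -153 to -145 and -84 to -76 from the start, and the first reads as the motif on both strands. None of the 3 motifs was found in the Cd44 window. Over all 32851 promoter windows of 300 bases, 18.5% held the NF-kappa B core, 7.81% the AP-1 site and 3.20% the PU.1 site. Among the other members, Itgax held 1 AP-1 site and Itgav 1 PU.1 site, and no match overlapped that of another motif. These are matches of letters, not measured binding.

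In naïve microglia the most abundant of the 10 transcripts were those of the integrin beta chains. Itgb5 had a median of 58.6 RPKM (19.1 to 541), Itgb2 42.6 (21.8 to 95.8) and Itgam 20.5 (10.4 to 47.5). Itgav followed at 6.57 (2.60 to 12.4) and Icam1 at 6.10 (0.0539 to 32.1). Vcam1, Itgax, Cd44 and Itga4 had medians of 1.69, 1.43, 0.631 and 0.226 RPKM, and that of Itgal was 0. The 9 pairs of neighbours in this order were compared within the 10 naïve retinas on the log2(RPKM + 1) scale, by an exact two-sided sign-flip permutation test with Benjamini-Hochberg adjustment over the 9. Of these, 5 pairs differed: Itgb2 over Itgam (exact test, adjusted p = 0.0264, higher in 8 of 10 retinas), Itgam over Itgav (0.0176, 9 of 10), Icam1 over Vcam1 (0.0176, 10 of 10), Cd44 over Itga4 (0.0422, 8 of 10) and Itga4 over Itgal (0.0234, 8 of 10). Itgb5 and Itgb2, Itgav and Icam1, Vcam1 and Itgax, and Itgax and Cd44 did not differ beyond their spread (exact test, adjusted p from 0.261 to 0.842). The order and its pairs were taken from the same 10 retinas, so the direction of each pair was set by the data. These p-values therefore do not test an order set in advance. Medians of Cd44, Itga4 and Itgal were 0.631 RPKM or less, near the floor.

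**Figure D1:**
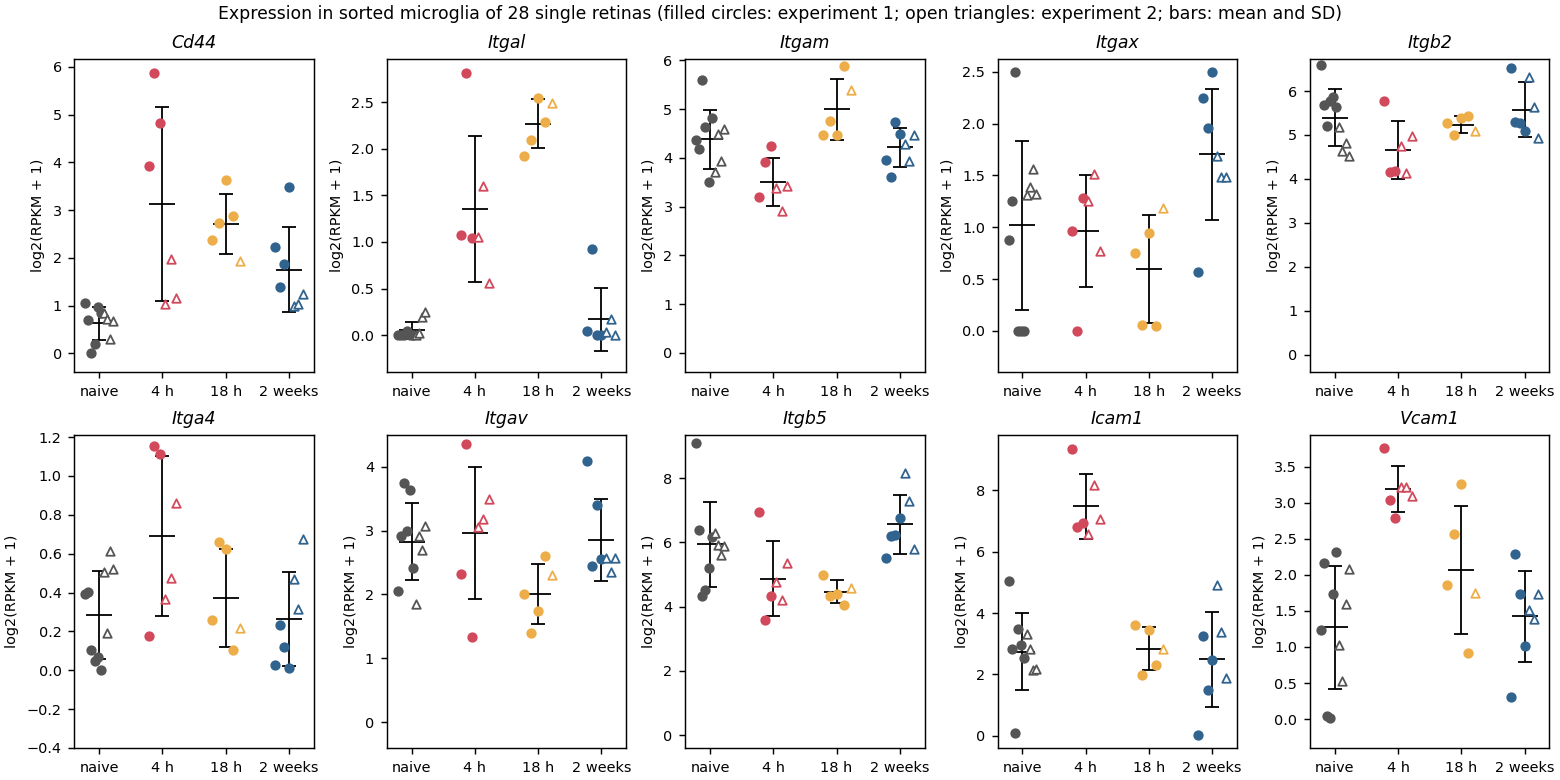
RPKM of the 10 adhesion genes on the log2(RPKM + 1) scale in every retina, by group. Filled circles are experiment 1, open triangles experiment 2, and bars give the mean and SD of all retinas of the group; Icam1, Itgal and Vcam1 at 4 h lie above every naïve retina, and the Cd44 retinas at 4 h fall apart by experiment.

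At 4 h after LPS, 4 of the 9 tested genes rose and none fell. They were both ligand genes, Icam1 and Vcam1, with Cd44 and Itgal. Over all genes tested, 3.68% were called up and 4.39% called down at 4 h. All 4 h retinas lay above all naïve retinas for 3 of the 10 members, Icam1, Vcam1 and Itgal, where 1.65% of all genes tested did so and 1.42% lay wholly below. The median log2 fold change of the 9 members was 0.13, against -0.11 for all genes tested.

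Icam1, the ligand of LFA-1, was the largest of the 4 changes. Its 4 h retinas ran from 94.5 to 652 RPKM with a median of 126, and naïve retinas from 0.0539 to 32.1. The groups did not overlap. The rise was 4.74 on the log2 scale (SE 0.60, adjusted p = 8.99e-07), 26.7-fold, and at 4 h Icam1 had the highest median of the 10 genes. By experiment, the rise was 4.88 in experiment 1 and 4.64 in experiment 2. The gene lies on chromosome 9 (21015985 to 21028817), with the antisense gene Gm47079 across part of its exons, which was at most 0.281 RPKM. The libraries do not mark strand, so reads of a gene and its antisense partner cannot be told apart.

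Vcam1, the ligand of alpha4 integrins, ran from 5.90 to 12.5 RPKM at 4 h with a median of 7.95, and from 0.0127 to 4.00 in naïve retinas. It rose by 1.91 (SE 0.39, adjusted p = 0.00110), 3.77-fold. In experiment 1 alone the rise was 1.94 (adjusted p = 0.157), which was not a call, and in experiment 2 alone it was 1.88 (adjusted p = 0.00376). Vcam1 lies on chromosome 3 (116109949 to 116129688), where the antisense gene Gm43109 reached 1.94 RPKM. Icam1 and Vcam1 are also genes of endothelium. The endothelial and pericyte marker genes summed to between 0.774 and 2.23 RPKM at 4 h and between 0 and 3.19 in naïve retinas, and none of the 9 genes had a median of 1 RPKM or more in either group. Of the 9, Cldn5, Tek, Ptprb and Kcnj8 were at 0 in all 6 of the 4 h retinas, and Kdr and Rgs5 were above 0 in all 6, with medians of 0.935 and 0.232 RPKM against 0.394 and 0.143 in naïve retinas. Their part in the Icam1 and Vcam1 values was not tested.

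Itgal, the alpha chain of LFA-1, was listed at 0 in 6 of the 10 naïve retinas and at 0.0134, 0.0342, 0.144 and 0.186 RPKM in the other four. A single read of Itgal is worth between 0.00972 and 0.0255 RPKM, so the naïve values rest on few reads. At 4 h it ran from 0.478 to 6.03 RPKM with a median of 1.08, and the groups did not overlap. The rise was 1.30 (SE 0.24, adjusted p = 3.42e-04, and 4.63e-04 without a filter). In experiment 2 alone it was 0.95 (adjusted p = 0.0198), under the 2-fold threshold, against 1.63 (adjusted p = 0.0313) in experiment 1.

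Cd44, the hyaluronan receptor gene on chromosome 2 (102811141 to 102901665), was low in naïve retinas, from 0 to 1.09 RPKM with a median of 0.631. At 4 h the 3 retinas of experiment 1 had 14.1, 57.5 and 27.4 RPKM, and the 3 of experiment 2 had 1.04, 2.92 and 1.23. Retinas of experiment 1 all lay above those of experiment 2, of which 1 lay within the naïve range. Over both experiments the rise was 2.496 (SE 0.54, adjusted p = 0.00185, and 0.00781 without a filter). A one-way ANOVA on untransformed RPKM did not call it (adjusted p = 0.0602). It was 4.24 in experiment 1 alone (adjusted p = 1.14e-04) and 0.75 in experiment 2 alone (adjusted p = 0.0758). The difference between the experiments in the change at 4 h was -3.49 (SE 0.68, adjusted p = 0.0325, and 0.0188 without a filter), experiment 2 minus experiment 1. Of all genes tested, 0.0988% were called for this difference, and Cd44 was the only member called. When retinas were left out 1 at a time, the call held in 16 of 28 fits. It was lost without naïve replicate 2, 3, 4, 7, 8, 9 or 10, without 4 h replicate 2, 3, 4 or 6, and without 2-week replicate 5, with adjusted p from 0.0513 to 0.201. In naïve retinas Cd44 had a median of 0.711 in experiment 1 and 0.617 in experiment 2.

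The alpha chain genes Itgal (127296260 to 127335138), Itgam (128062640 to 128118491) and Itgax (128129547 to 128150657) lie on chromosome 7, the last pair 11055 bases apart, and Itgb2 on chromosome 10 (77530252 to 77565708). Itgam shares exons with the annotated gene Gm49368, so its values are uncertain to that extent. Itgam and Itgb2 did not pass the test at 4 h. Itgam, the Mac-1 alpha chain, ran from 6.51 to 17.9 RPKM with a median of 9.52, and 4 of the 6 retinas lay below every naïve retina. Its change was -0.87 (SE 0.32, adjusted p = 0.0883). With every retina rescaled to the same summed RPKM the change was -1.14 (adjusted p = 0.0150), and that fit calls it. Itgb2 ran from 16.5 to 53.7 RPKM with a median of 21.5, and its change was -0.73 (SE 0.33, adjusted p = 0.195). Itgax, Itgav and Itgb5 had changes of -0.06, 0.13 and -1.07 (adjusted p = 0.953, 0.895 and 0.248). Itga4, the receptor chain for VCAM-1 on chromosome 2 (79255426 to 79333123), overlaps Cerkl on the other strand, and was at or below 1.23 RPKM in every 4 h retina and at or below 0.532 in every naïve retina. Exons of Cerkl and Itga4 overlap, and Cerkl had a median of 1.16 RPKM over all retinas, up to 3.55, so the Itga4 values are uncertain to that extent.

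**Figure D2:**
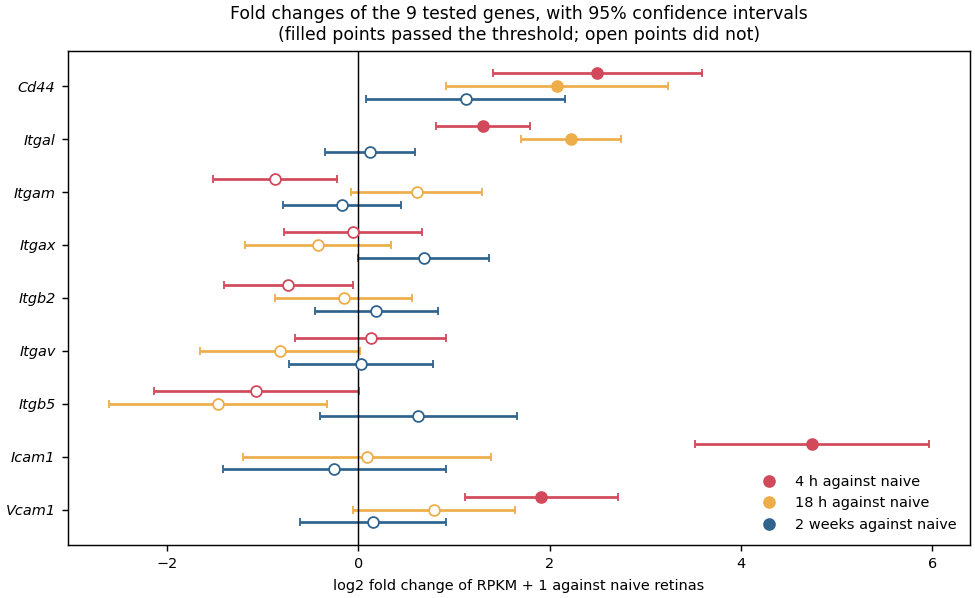
Log2 fold changes of RPKM + 1 against naïve retinas for the 9 tested genes, coloured by time after LPS, with 95% confidence intervals from the fit. Filled points were called; Icam1 is called at 4 h with 4.74 and is near 0 at 18 h with 0.09, Itgal is called at both 4 h (1.30) and 18 h (2.22), and no 2-week point is filled.

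At 18 h, 2 of the 9 tested genes were called, Itgal and Cd44, both up. Over all genes tested, 2.84% were called up and 1.85% called down. The 18 h retinas lay above all naïve retinas for these 2 genes, where 2.05% of all genes did so and 1.30% lay wholly below. The median change of the 9 members was 0.09, against -0.08 for all genes tested.

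Itgal had 2.80, 3.27, 4.83, 3.89 and 4.63 RPKM in the 5 retinas. All 5 lay above the highest naïve value of 0.186. The rise was 2.22 (SE 0.26, adjusted p = 5.70e-07, and 1.38e-06 without a filter). It was 2.21 in experiment 1 (adjusted p = 0.00374). Experiment 2 had 1 retina at 18 h, so its value of 2.38 is given with no test. Lymphocyte marker genes summed to between 43.3 and 357 RPKM at 18 h, against 20.2 to 81.3 in naïve retinas, with Nkg7 at 5.77 to 86.4 and Gzma at 0 to 238 RPKM. Monocyte marker genes summed to between 147 and 322 RPKM, against 15.7 to 76.2, of which Ms4a4c alone gave 134 to 315 while Ccr2 and Ly6c2 reached 1.15 and 4.68. LFA-1 is carried by lymphocytes, monocytes and other leukocytes. Their part in the Itgal value was not tested, and with bulk RNA a change in the number of cells of a type and a change of RNA per cell cannot be told apart.

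Cd44 had 4.199, 5.62, 11.4, 6.38 and 2.82 RPKM at 18 h, the last in experiment 2. All 5 retinas lay above the highest naïve value of 1.09. The rise was 2.08 (SE 0.57, adjusted p = 0.0262), and it was not called without a filter (adjusted p = 0.0774) or by the ANOVA on untransformed RPKM (adjusted p = 0.656). It was 2.27 in experiment 1 (adjusted p = 0.0318), and 1.30 in the single retina of experiment 2, with no test. The call was lost without 18 h replicate 1, 2, 3 or 4, each left out alone, with adjusted p from 0.0516 to 0.106.

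Neither ligand gene passed the test at 18 h. Icam1 had 11.2, 2.95, 10.0, 3.96 and 6.03 RPKM, all within the naïve range, a change of 0.09 (SE 0.64, adjusted p = 0.962). Vcam1 had 2.62, 4.91, 8.60, 0.884 and 2.34 RPKM, with 2 retinas above the naïve range, a change of 0.79 (SE 0.41, adjusted p = 0.325). Itgam had 21.0, 26.1, 21.3, 57.7 and 40.8 RPKM (0.61, adjusted p = 0.361) and Itgb2 37.8, 31.0, 40.9, 42.1 and 33.1 RPKM (-0.16, adjusted p = 0.875). Itgb5 had 30.6, 19.3, 20.0, 15.6 and 23.0 RPKM, a change of -1.47 (adjusted p = 0.140), and Itgav, which overlaps Gm13684 on the other strand, 3.03, 1.63, 2.33, 5.06 and 3.93 RPKM (-0.82, adjusted p = 0.297). Exons of Gm13684 and Itgav overlap, and Gm13684 had a median of 0.743 RPKM over all retinas, up to 3.13. Itgax was between 0.0367 and 1.27 RPKM and Itga4 between 0.0756 and 0.580.

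From 4 h to 18 h, 2 members were called in opposite directions, where 2.92% of all genes were called up and 2.51% down. Icam1 fell by 4.65 (SE 0.70, adjusted p = 3.95e-05), 25.0-fold. Itgam rose by 1.48 (SE 0.37, adjusted p = 0.0133), 2.80-fold, and the call did not hold without 18 h replicate 4, with 57.7 RPKM (1.26, adjusted p = 0.0514). In experiment 1 alone the difference was 1.11 (adjusted p = 0.547). The difference of Itgal was 0.91 (SE 0.28, adjusted p = 0.0538), and without 4 h replicate 2, which had 6.03 RPKM, it was 1.21 and called (adjusted p = 0.00104). That of Vcam1 was -1.12 (SE 0.46, adjusted p = 0.186), and the ANOVA on untransformed RPKM called it (adjusted p = 0.0170).

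The make-up of the beta2 partners is given as shares, with no test. Of the summed RPKM of Itgam, Itgal, Itgax and Itgad, Itgam gave a median of 93.1% in naïve retinas (range 87.1 to 100). Its median share was 79.6% at 4 h (range 62.7 to 89.1), 87.3% at 18 h (range 78.5 to 93.6) and, 2 weeks after LPS, 89.1% (range 70.7 to 96.6). Itgal gave at most 0.886% in any naïve retina, from 4.42 to 30.0% at 4 h and from 6.31 to 17.8% at 18 h. Itgam stayed the largest of the 4 in every retina. Itgad, the alphaD chain, was at most 0.212 RPKM in any retina.

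**Figure D3:**
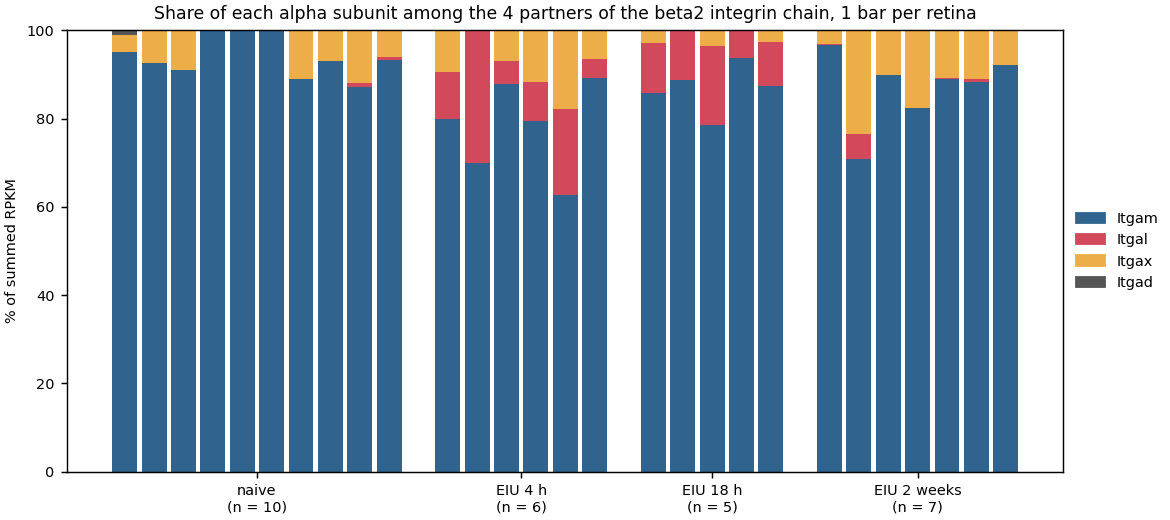
Share of each alpha subunit gene in the summed RPKM of the 4 alpha partners of the beta2 chain, 1 bar per retina, by group. Itgal is at or below 0.886% in the naïve retinas, between 4.42 and 30.0% at 4 h, and between 6.31 and 17.8% at 18 h.

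At 2 weeks none of the 9 tested genes was called, and 0.00760% of all genes were called up and 0.00% down. In limma, 1 member had an unadjusted p under 0.05, Cd44, with a change of 1.12 (p = 0.0360 before and adjusted p = 1 after adjustment). Its 2-week retinas ran from 0.994 to 10.3 RPKM with a median of 1.61, and 5 of 7 lay above every naïve retina. In experiment 1 they had 3.70, 1.61, 2.66 and 10.3 RPKM. In experiment 2 they had 0.994, 1.06 and 1.38, of which only the last lay above every naïve retina. A one-way ANOVA on untransformed RPKM called none of the members at 2 weeks either. Icam1 ran from 0.0232 to 29.0 RPKM and Vcam1 from 0.239 to 3.87. Itgax ran from 0.484 to 4.63 RPKM (0.68, adjusted p = 1) and Itgb5 from 44.7 to 285 (0.63, adjusted p = 1). Itgam had a median of 18.4 RPKM, Itgb2 38.3, Itgav 4.92 and Itga4 0.176.

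Itgal was the 1 member called from 18 h to 2 weeks, where 1.10% of all genes were called up and 1.55% down. It fell by 2.10 (SE 0.27, adjusted p = 9.07e-06, and 1.82e-05 without a filter), to a median of 0.0253 RPKM, with 3 of 7 retinas listed at 0 and the highest at 0.903. Itgb5 differed by 2.09 (SE 0.60, adjusted p = 0.0519) and so just missed the call.

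Between experiments, the naïve retinas gave no call for a member, where 1.78% of all genes were called. In limma 1 member had an unadjusted p under 0.05, Itgb2, with 21.8 to 35.6 RPKM in the 4 naïve retinas of experiment 2 and 36.2 to 95.8 in the 6 of experiment 1, a difference of -1.01 (SE 0.39, adjusted p = 0.142). For a difference between experiments in the change at 2 weeks, limma called 0 of 9 members, 0 had an unadjusted p under 0.05, and 0.00% of all genes were called. At 18 h the share of genes called was also 0.00%, but experiment 2 had 1 retina there, so nothing is read from it about how alike the experiments were.

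The adhesion genes around the 10 members were read from 6 lists of 98 genes, of which 57 were tested. At 4 h 5 rose and 2 fell, where 3.68% of all genes tested were called up and 4.39% down. At 18 h 2 rose and 4 fell, where the shares were 2.84% and 1.85%. At 2 weeks limma called 0 of the 57. Itga5, Tnfaip6, Mmp14, Pvr, Alcam and Madcam1, named below as called up, had naïve medians under 1 RPKM. Alcam passed the filter only through retinas after LPS, with a naïve maximum of 0.580 RPKM, and the rest mostly so. No p-value without a filter is given for them. Naïve retinas reached 4.84 RPKM for Itga5 and 6.64 for Mmp14. At 4 h, 2 of 6 retinas lay above every naïve retina for Itga5, and 3 of 6 for Mmp14. Over the 57, the median change was 0.06 at 4 h and -0.12 at 18 h, against -0.11 and -0.08 over all genes tested. Among the other integrin subunits, Itga5, the alpha chain of the fibronectin receptor, rose from a median of 0.189 to 3.92 RPKM at 4 h (2.23, SE 0.45, adjusted p = 9.63e-04). Itga6, a laminin receptor chain, fell from a median of 16.9 to 1.53 RPKM at 4 h (-2.59, SE 0.31, adjusted p = 3.53e-07) and to 7.03 at 18 h (-1.22, SE 0.33, adjusted p = 0.0252), with all 6 and all 5 retinas below every naïve retina. Itgb3, the beta3 partner of alphaV, fell from a median of 2.86 to 0.0601 RPKM at 18 h (-1.61, SE 0.39, adjusted p = 0.0101). Itgb1, which pairs with alpha4, alpha5, alpha6 and alphaV, had medians of 29.1, 31.0 and 35.9 RPKM in naïve, 4 h and 18 h retinas (changes of -0.08 and 0.17, adjusted p = 0.915 and 0.839).

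Of the 14 tested genes of hyaluronan and CD44 partners, 2 rose and 1 fell at 4 h. Tnfaip6, which encodes the hyaluronan-binding protein TSG-6, went from a median of 0 to 13.03 RPKM (2.97, SE 0.43, adjusted p = 1.02e-05). Mmp14, a membrane metalloprotease that can cleave CD44, went from 0.203 to 7.53 (2.14, SE 0.44, adjusted p = 0.00124), and Adam10, a further sheddase of CD44, from 35.0 to 12.5 (-1.44, SE 0.28, adjusted p = 6.05e-04). At 18 h Spp1, which encodes osteopontin, was called at a median of 57.2 RPKM against 15.8 (2.98, SE 0.88, adjusted p = 0.0431), over a range of 9.16 to 1990 RPKM.

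Of the 13 tested immunoglobulin-family and junctional genes, Pvr and Alcam rose at 4 h. Pvr, the poliovirus receptor gene, went from a median of 0.388 to 2.41 RPKM (1.51, SE 0.28, adjusted p = 3.67e-04). Alcam, the ligand of CD6, went from 0.0774 to 1.37 (1.19, SE 0.26), with 5 of 6 retinas above every naïve retina. At 18 h Madcam1, the ligand of alpha4beta7, rose from a median of 0 to 1.63 RPKM (1.10, SE 0.23, adjusted p = 0.00317) and Jam2 fell from 19.1 to 5.49 (-1.83, SE 0.39, adjusted p = 0.00406). The highest naïve values were 0.580 RPKM for Alcam, 1.07 for Pvr and 1.10 for Madcam1, so these calls carry the filter limit given above. Alcam entered the test only through retinas after LPS, so its p-value is not given. Of 18 tested genes of integrin activation and signalling, Tln2, a talin gene, was the 1 call at 18 h, with 0.513 RPKM against 2.56 (-1.06, SE 0.28, adjusted p = 0.0197), and none of the 18 was called at 4 h. No gene of the selectin list (3 tested) or of the matrix ligands (4 tested) was called at 4 h or 18 h.

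Genes whose values followed a member most closely over the 28 retinas were named by Pearson's r of log2(RPKM + 1). For Icam1 they were Clic4 (0.92) and Nfkbie (0.92), a chloride channel family gene and an inhibitor of NF-kappa B. For Vcam1 they were Id2 (0.86) and 3110043O21Rik (0.85), for Itgal Ccl5 (0.90) and Cd72 (0.90), and for Cd44 Nupr1 (0.86), Ifitm7 (0.85), Ambp (0.83), Cd274 (0.82) and Il4i1 (0.81). The points share library, group and experiment, so these values describe likeness alone.

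The sorted cells carried the microglial marker genes, whose 12 genes all had a median of at least 1 RPKM in each group and summed to between 8461 and 14507 RPKM in naïve and 2206 and 7362 at 4 h. Their sum ran from 4028 to 6662 RPKM at 18 h and from 9066 to 14601 at 2 weeks. Neutrophil markers summed to at most 83.0 RPKM in any retina, a naïve one where Csf3r alone gave that value. S100a8, S100a9, Retnlg, Mmp8 and Camp were at 0 in all naïve retinas. At 18 h these genes reached 9.24, 5.15, 0.729, 2.30 and 3.28 RPKM, while Ngp, Ltf and Mpo were at 0. Dendritic cell markers summed to between 18.5 and 187 RPKM at 4 h, of which Ccr7 gave 15.9 to 180, and to at most 8.40 in naïve retinas. Müller glia and astrocyte markers summed to between 151 and 10128 RPKM over all retinas, mostly Apoe. Their naïve medians were 1658 RPKM for Apoe and from 0 (Gfap) to 101 (Glul) for the others. Rod photoreceptor markers summed to between 1209 and 6726 RPKM. The part of these marker genes in the member values was not tested.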

How the data were processed

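Live cells with high tdTomato from single retinas were made into mRNA-Seq libraries by SMART-Seq v4 and Nextera XT, which do not mark strand. Per the methods and the submitters' processing notes, the authors made reads with bcl2fastq 2.20, trimmed them, aligned them to mm10 with STAR 2.5.3a and quantified Ensembl transcripts with Partek's expectation-maximisation, which can divide a read between genes. The deposited values are RPKM; counts and the depth behind 1 gene cannot be recovered. The 2 deposited tables of comparisons hold fold changes and p-values of the authors, and were not used. Alignments per retina ran from 7510000 to 19700000, and precision rests on the number of retinas.

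Genes that reached 1 RPKM in 5 or more of the 28 retinas (13164 of 40021) were tested as log2(RPKM + 1) with limma 3.58.1 in R 4.3.3, in 1 fit of 4 groups (trended empirical Bayes) adjusted by Benjamini-Hochberg. Differences between experiments used a fit of 8 group-by-experiment cells. Scripts were tested on simulated data, and Python 3.11.15 gave summaries and figures. Genes named beyond the members are the called genes of the adhesion lists at 4 h and 18 h, at most 2 for each list and direction by smallest p, and the genes with highest Pearson r (5 for Cd44, 2 for each other called member); Itgad, Itgb1, marker genes and overlapping genes are named for what they bear on. Marker lists were those of microglia, neutrophils, monocytes, lymphocytes, dendritic cells, endothelium and pericytes, Müller glia and astrocytes, and rods. The members and lists were chosen with earlier results of these data known. Gene coordinates are GRCm38, GENCODE M21, and promoter sequences are from RefSeq on GRCm38.p6. Alternatives were pseudocount, filter, scaling, covariates, experiment, replicate block and leaving out each retina.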

Additional observations from a re-analysis of the deposited data

Results flagged for a closer look

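Of 40 combinations of member and group, 2 held a retina far from the others on the log2 scale, and chance flags about 1 in 20 groups. Itgal at 2 weeks was 0.903 RPKM in the second retina, and at most 0.125 RPKM in the other 6. Itgb5 in naïve retinas was 541 RPKM in the first retina, and 19.1 to 82.1 RPKM in the other 9. Without that naïve retina, the adjusted p of Itgb5 from 18 h to 2 weeks was 0.0123 in limma.

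The change of Cd44 at 4 h differed between the experiments by -3.49 on the log2 scale (adjusted p = 0.0325 in limma, and 0.0188 without a filter, experiment 2 minus experiment 1). In the 4 h retinas, monocyte marker genes summed to between 28.5 and 175 RPKM in experiment 1 and between 11.7 and 52.6 in experiment 2. Of that list, Ms4a4c ran from 5.53 to 158 RPKM over the 4 h retinas, and Nr4a1 and Plac8 reached 29.7 and 12.8. Ccr2 reached 0.0321 RPKM there and Chil3 was at 0. Rod marker genes summed to between 1209 and 4125 RPKM in experiment 1 and between 4176 and 5426 in experiment 2. The part of either list in the difference was not tested.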

How the results depend on the processing

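Member counts changed as follows; the cause was not tested, except that a pseudocount of 10 shrinks the fold change of low genes by its construction. At 4 h (4 called) the count was 2 with a pseudocount of 10 and with experiment 2 alone; it was 3 with a filter at RPKM 5, which leaves Itgal untested, with experiment 1 alone, where Vcam1 was lost, and on untransformed RPKM, where Cd44 was lost (adjusted p = 0.0602), and 5 with equal summed RPKM, where Itgam joined. At 18 h (2 called) it was 0 with a pseudocount of 10, and 1 without a filter, where Cd44 was lost (adjusted p = 0.0774), with a filter at RPKM 5, with experiment 2 alone, which has 1 retina at 18 h, and on untransformed RPKM, where Cd44 was lost; leaving out 1 retina gave 1 to 2. From 4 h to 18 h (2 called) it was 1 with quantile normalisation and with experiment 1 alone, 3 on untransformed RPKM, where Vcam1 joined (-1.10, adjusted p = 0.0170), and 3 with experiment 2 alone, where Itgal joined (1.42, on 1 retina at 18 h), and 1 to 3 with 1 retina left out. From 18 h to 2 weeks (1 called) it was 0 with a pseudocount of 10, and 2 with eye side as covariate, with equal summed RPKM and with only the groups compared, where Itgb5 joined Itgal, and 1 to 2 with 1 retina left out. The interaction of Cd44 at 4 h was called in 0 members with a pseudocount of 0.1 (adjusted p = 0.408), a filter at RPKM 5 (0.0537) and quantile normalisation (0.0681), and in 0 to 1 with 1 retina left out. The call of Icam1 at 4 h held in 15 of 15 alternatives and 28 of 28 fits without 1 retina. Equal summed RPKM moved the median log2 change over the genes tested to -0.28 (4 h) and -0.26 (18 h), against -0.11 and -0.08 as deposited.

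Replicate numbers were not taken to pair the retinas. Of 34 same-numbered pairs in different groups, 15 had deviations correlated over 0.1 (r from -0.33 to 0.70), and a retina correlated best with its own number in 16 of 68 comparisons. No chance level was set for these counts, so they cannot decide whether the numbers pair retinas. With the number as a replicate block, 1 member was called at 18 h and 0 for the interaction at 4 h, and 5 were called at 4 h, where Itgb2 (-1.15, adjusted p = 0.0241) joined; it changed no other member count. The RPKM keep no counts, so depth limits the lowest values, Itgal and Itga4 in naïve retinas above all.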
